A study of Homo sapiens with 6 samples.

Results

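The transcripts described here are 9 early response transcription regulators of HCT116 cells: the FOS family (FOS, FOSB, FOSL1 and FOSL2), the JUN family (JUN, JUNB and JUND), EGR1 and IER2. They were taken by gene symbol from a table of 23368 symbols, and all 9 were listed and had enough reads to be tested. The symbols were chosen with earlier results of these data known. The tested cells had been treated with siADNP, an siRNA against ADNP, a zinc finger and homeodomain protein of chromatin, and the control cells with siControl, a control siRNA. Each group held 3 libraries, and the comparison asks what changes when ADNP is depleted. Both groups are HCT116, 1 established human colon cancer line, so the values describe this line only. The time between transfection and harvest is not given in the sources used here.

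FOS and JUN proteins are basic leucine zipper factors. A FOS protein must pair with a JUN protein to bind DNA, while JUN proteins also pair among themselves, and these pairs are the classical AP-1 factor that binds the motif TGACTCA. Many of these genes are immediate early genes, switched on within minutes of a growth signal or stress through pre-existing factors such as SRF and CREB, without new protein synthesis. FOSL1 and FOSL2 lack the C-terminal activation domain of FOS, and FOSL1 is known to accumulate in cells with active growth factor signalling. EGR1 is a zinc finger factor of the same early wave, and IER2 a nuclear product of it.

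Promoter sequences are shown for the 3 JUN genes, FOSL2 and EGR1, because the JUN genes and FOSL2 moved and the EGR1 window holds sites of SRF. Each run is the 150 bases before the RefSeq start on GRCh38.p14, read 5′ to 3′ on the gene's strand. JUN is at chr1:58784048-58784197 (minus strand), JUNB at chr19:12791336-12791485 (plus strand) and JUND at chr19:18281623-18281772 (minus strand). FOSL2 is at chr2:28392708-28392857 (plus strand) and EGR1 at chr5:138465329-138465478 (plus strand). The GENCODE annotation used for transcript lengths starts FOSL2 at 28392448 and JUN at 58784327, so the runs of FOSL2 and JUN lie downstream of those starts. Capitals mark the half-site TGACG of the cyclic AMP response element or its reverse complement CGTCA, the octamer TGACATCA, and the CArG box of SRF.
JUN: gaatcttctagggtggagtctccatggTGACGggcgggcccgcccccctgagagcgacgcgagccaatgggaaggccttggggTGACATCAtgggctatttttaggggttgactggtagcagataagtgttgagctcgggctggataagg
JUNB: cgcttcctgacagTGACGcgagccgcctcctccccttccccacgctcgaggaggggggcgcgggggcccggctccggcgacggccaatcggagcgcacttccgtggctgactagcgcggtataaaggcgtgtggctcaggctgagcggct
JUND: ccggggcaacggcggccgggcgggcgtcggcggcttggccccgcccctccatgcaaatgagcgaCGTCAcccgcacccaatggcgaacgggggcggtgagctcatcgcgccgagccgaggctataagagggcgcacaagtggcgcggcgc
FOSL2: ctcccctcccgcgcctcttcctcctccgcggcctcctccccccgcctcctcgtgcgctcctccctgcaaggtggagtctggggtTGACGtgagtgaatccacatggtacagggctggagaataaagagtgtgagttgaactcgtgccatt
EGR1: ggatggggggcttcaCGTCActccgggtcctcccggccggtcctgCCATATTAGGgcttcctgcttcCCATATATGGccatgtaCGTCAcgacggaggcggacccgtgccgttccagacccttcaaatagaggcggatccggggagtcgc

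Promoter windows of 300 bases, 250 before and 50 after the start, were listed for 8 of the 9 genes, all but FOSL1. The half-site TGACG, searched on both strands, was in all 8 windows, while 24.6% of 35116 RefSeq promoter windows hold it. The full element TGACGTCA, which contains the half-site, was in the JUND window only, from -200 to -193 and so outside the bases printed, and 1.85% of windows hold it. The octamer TGACATCA, through which JUN and ATF2 are known to act on the JUN promoter, stood at -67 to -60 of JUN and is held by 2.61% of windows. The CArG boxes found in the EGR1 window lay from -105 to -96 and from -83 to -74, and 1.29% of windows hold a CArG box. Sites of any gene further upstream than 250 bases were not searched. The AP-1 motif TGACTCA was found in the FOSL2 window alone, just after the RefSeq start, from 5 to 11, against 4.95% of windows. A TATA box, searched as TATAA, was in the windows of FOS, FOSB, JUNB and JUND and in 20.4% of all windows.

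The libraries held between 7396771 and 8726017 reads in genes with siADNP and between 8282290 and 10265175 with siControl, and levels are given as CPM, reads of a gene scaled to a fixed library size, after TMM scaling, a correction for library composition. ADNP mRNA averaged 53.9 ± 6.61 CPM with siADNP and 164 ± 8.23 CPM with siControl (SD, n = 3 each), 32.9% of control, so the target matched the labels in every library. The labels name colon cancer, and the epithelial genes EPCAM, KRT8 and KRT18 were abundant, with means of 327, 1300.4 and 986 CPM in siADNP libraries and 335, 1295 and 966 CPM in siControl libraries. VIL1 and CDX1, also epithelial, were at 0 reads. The 8 fibroblast and smooth muscle markers summed to between 14.5 and 19.5 CPM with siADNP and between 14.8 and 18.8 CPM with siControl, with DCN and LUM at 0. These like sums hold opposite changes. DES averaged 4.93 CPM with siADNP and 1.38 CPM with siControl, and ACTA2 averaged 3.80 CPM with siADNP and 7.95 CPM with siControl. The 8 blood and endothelial markers summed to between 9.95 and 11.03 CPM with siADNP and between 7.95 and 8.62 CPM with siControl, with HBB at 0, and their part in the results was not tested. The groups of that sum do not overlap, and most of it is CD68. In such bulk libraries, fewer cells making a transcript and less of it per cell cannot be told apart.

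Of the 9 factors, 4 fell and 1 rose with siADNP at an adjusted p under 0.05, and 4 did not pass (edgeR's quasi-likelihood test, adjusted over all 12489 genes tested). All 3 JUN genes fell, with log2 fold changes between -0.43 and -0.21, and so did FOSL1, while FOSL2 rose. Over all tested genes, 13.7% were called lower, 14.6% higher and 28.3% in either direction, against 44.4%, 11.1% and 55.6% of the 9 factors. The 9 factors and the lists below were chosen with earlier results of these data known. Such shares only describe them, and no test of the shares was run. The groups did not overlap for 5 of the 9 factors, the same 5 that were called, and for 40.8% of all tested genes (20.1% higher and 20.7% lower). The changes were modest. The median absolute log2 fold change of all called genes was 0.32, and the 5 called factors lay between 0.21 and 0.43 in absolute size.

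**Figure D1:**
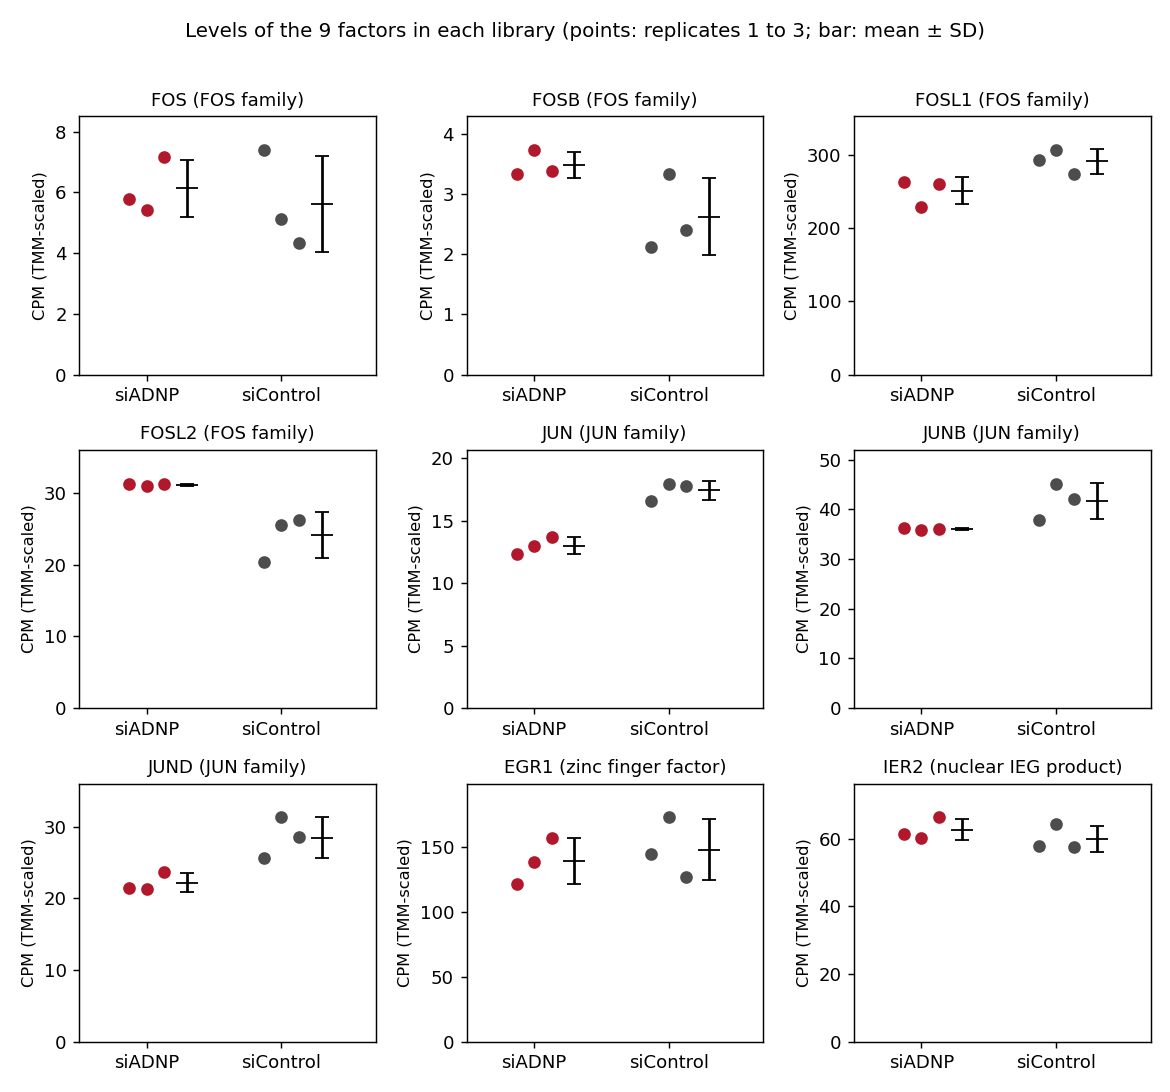
Level of each of the 9 factors in every library, in TMM-scaled CPM from 0, with siADNP libraries in red and siControl libraries in grey; bars give the mean ± SD of 3 libraries. The groups stand apart for FOSL1, FOSL2, JUN, JUNB and JUND, as with JUN at 12.3 to 13.7 against 16.6 to 18.0 CPM, and they overlap for FOS, FOSB, EGR1 and IER2.

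**Figure D2:**
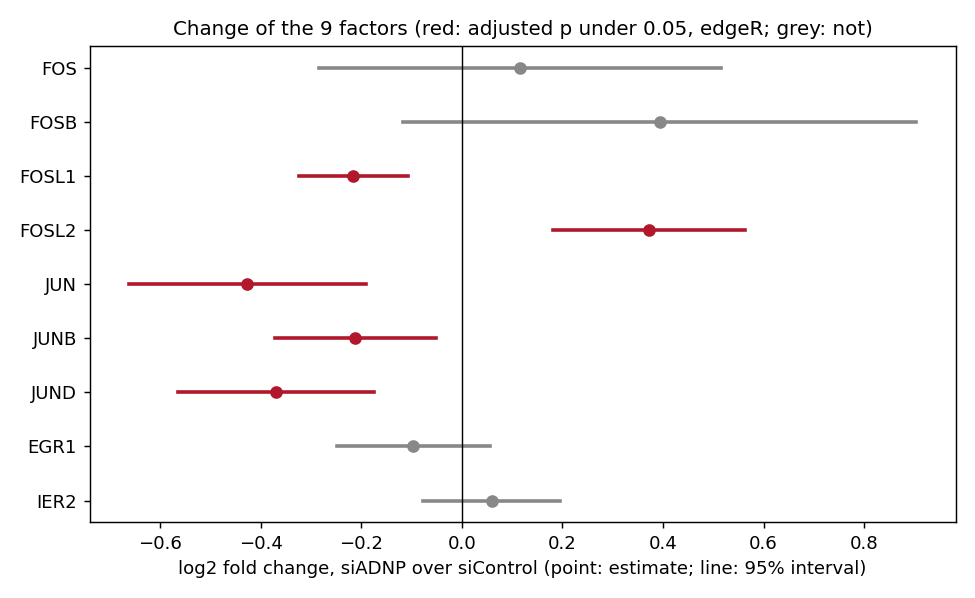
Log2 fold change of each factor, siADNP over siControl, with its 95% interval from the edgeR fit; red marks an adjusted p under 0.05. JUN, JUND, FOSL1 and JUNB lie below 0 and FOSL2 above it, and the intervals of FOS and FOSB are the widest of the 9.

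FOSL1, known as FRA-1, was the most abundant of the 9 factors and fell. It had 263, 229 and 261 CPM in the siADNP libraries, against 293, 306 and 273 CPM in the siControl libraries. Every siADNP library lay below every siControl library, with siADNP replicate 2 the lowest of all. The log2 fold change was -0.22 ± 0.05 (SE), with an adjusted p of 0.00225 (edgeR), and the level was 86.1% of control with a 95% interval of 79.8% to 92.8%. FOSL1 stayed below the threshold in all 16 alternative fits, with log2 fold changes between -0.34 and -0.15. The estimate of -0.34 came with a correction for GC content.

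FOSL2, known as FRA-2, moved the other way. FOSL2 measured 31.2, 31.0 and 31.3 CPM in the siADNP libraries, against 20.4, 25.5 and 26.3 CPM in the siControl libraries. The siADNP libraries were close together and all higher, and siControl replicate 1 was the lowest. FOSL2 rose by 0.37 ± 0.09 on the log2 scale (SE; adjusted p = 0.00272, edgeR), to 129% of control with a 95% interval of 113% to 148%. The call held in all 16 alternatives, the highest adjusted p being 0.0456 without siControl replicate 1, where the log2 fold change was 0.27. Per read of FOSL2 there were 8.44, 7.40 and 8.33 reads of FOSL1 in the siADNP libraries, against 14.4, 11.996 and 10.4 in the siControl libraries.

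FOS, the founding member of the family, was scarce in both groups. It gave 45, 48 and 53 reads in the siADNP libraries, against 66, 52 and 36 reads in the siControl libraries, or means of 6.13 ± 0.926 and 5.61 ± 1.59 CPM (SD, n = 3 each). The siControl libraries held both the highest and the lowest value. FOS did not pass (log2 fold change 0.12, adjusted p = 0.703, edgeR), and its 95% interval of 82.1% to 143% of control holds the size of rise seen in FOSL2 but not the fall seen in JUN. Its sign turned without siADNP replicate 3 (-0.00198) and without siControl replicate 3 (-0.03).

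FOSB, the nearest relative of FOS, was rarer still, with 26, 33 and 25 reads in the siADNP libraries, against 19, 34 and 20 reads in the siControl libraries. Its level averaged 3.48 ± 0.217 CPM with siADNP and 2.63 ± 0.635 CPM with siControl (SD, n = 3 each), and the groups overlap because siControl replicate 2 was level with the siADNP libraries. The log2 fold change of 0.39 ± 0.25 (SE) did not pass (adjusted p = 0.253, edgeR), with a 95% interval of 92.2% to 187% of control. Without siControl replicate 2 it was 0.62 and without siControl replicate 1 it was 0.26, neither passing. The estimate is as large as that of FOSL2, and at this depth a change of that size could not be told from none.

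JUN, the founding AP-1 partner and the strongest activator of its family, had the lowest log2 fold change of the 9 factors in the edgeR fit, though JUND was lower with a GC correction (-0.57 against -0.52) and FOSL1 and JUND were lower in limma on the deposited values (-0.19 each against -0.18). It stood at 12.3, 13.01 and 13.7 CPM in the siADNP libraries, against 16.6, 18.0 and 17.8 CPM in the siControl libraries. The replicates of each group were close together and well apart from the other group. JUN gave a log2 fold change of -0.43 ± 0.12 (SE; adjusted p = 0.00514, edgeR), a fall to 74.4% of control with a 95% interval of 63.2% to 87.6%. The call held in all 16 alternatives, with the highest adjusted p of 0.0438 in DESeq2's Wald test.

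JUND, the family member that most cell types express at a steady level, fell by a like amount. JUND stood at 21.4, 21.4 and 23.7 CPM in the siADNP libraries, against 25.6, 31.3 and 28.5 CPM in the siControl libraries. All siADNP libraries were below all siControl libraries, and siControl replicate 2 was the highest. The log2 fold change was -0.37 ± 0.10 (SE), with an adjusted p of 0.00357 (edgeR), to 77.4% of control with a 95% interval of 67.6% to 88.6%. JUND was called in all 16 alternatives, most narrowly without siControl replicate 2 (adjusted p = 0.0477, log2 fold change -0.29).

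JUNB, a weaker activator that can oppose JUN, fell least of the 3 JUN genes and its call was fragile. It had 36.2, 35.9 and 36.2 CPM in the siADNP libraries, against 37.9, 45.2 and 42.0 CPM in the siControl libraries. The siADNP libraries were nearly equal, and siControl replicate 1 lay just above them. The log2 fold change was -0.21 ± 0.08 (SE), with an adjusted p of 0.0414 (edgeR). The call ended without siADNP replicate 1, 2 or 3 (adjusted p = 0.0785, 0.0907 and 0.0866), without siControl replicate 2 or 3 (0.257 and 0.0847), with upper-quartile scaling (0.0754) or library totals (0.0592), and in DESeq2 (0.165). With a GC correction the fall was larger, at -0.38. JUNB shares exonic bases with HOOK2, a gene on the opposite strand that did not pass (log2 fold change 0.03, adjusted p = 0.847, edgeR), and the strand setting of the counting is not given in the sources used here.

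The JUN genes consist of a single exon and are rich in G and C, with 56.7% in JUN, 64.9% in JUNB and 69.7% in JUND, and GC content moved with the group over the whole table. The median GC content was 54.4% among called genes that rose and 43.2% among those that fell. Genes within 2 percentage points of JUND in GC content had a median log2 fold change of 0.15, with 28.6% called higher and 3.57% called lower. Those near JUNB had a median of 0.11, those near FOSL1 0.10, those near JUN 0.067 and those near FOSL2 0.03. The 4 factors that fell lay below these medians of genes of like composition, and FOSL2 lay above its own. When GC content was corrected for in the fit, the falls of JUN, JUND and FOSL1 were -0.52, -0.57 and -0.34, and the rise of FOSL2 was 0.31.

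**Figure D3:**
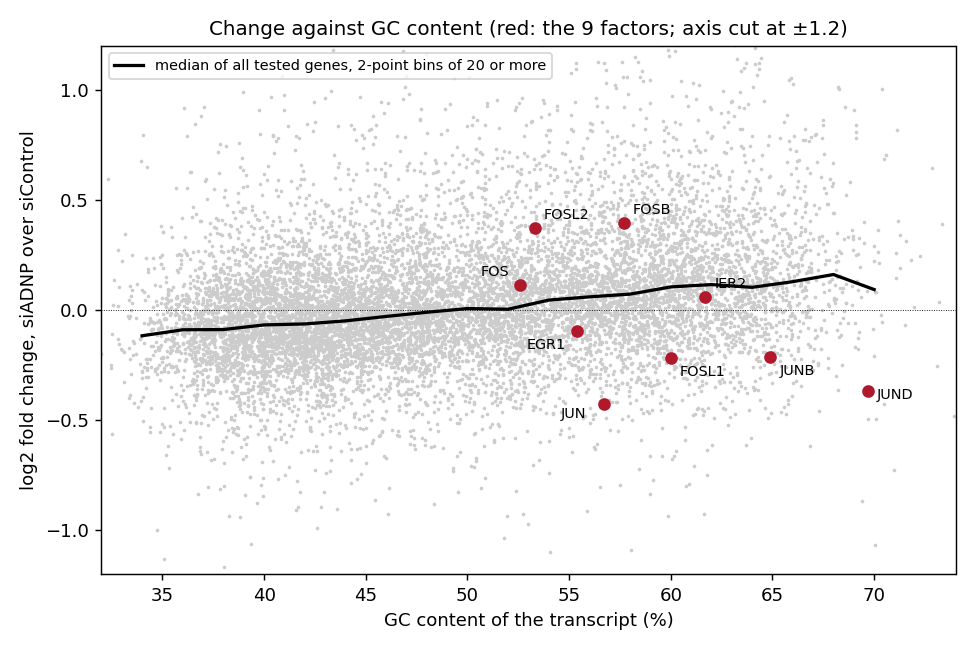
Log2 fold change, siADNP over siControl, against GC content of the transcript in percent, with all tested genes in light grey, the median of 2-point bins of at least 20 genes as a black line and the 9 factors in red. The line climbs with GC content, and FOSL1, JUN, JUNB and JUND lie below it, JUND by the most at 69.7% GC.

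EGR1 was abundant and varied widely among replicates. It had 122, 139 and 157 CPM in the siADNP libraries, against 145, 173 and 127 CPM in the siControl libraries, and the groups overlap across most of their range. EGR1 did not pass (log2 fold change -0.10 ± 0.08 (SE), adjusted p = 0.353, edgeR), with a 95% interval of 84.1% to 104% of control. The result rested on single libraries. Without siControl replicate 3 it passed (log2 fold change -0.20, adjusted p = 0.0466), and without siControl replicate 2 the sign turned (0.03, adjusted p = 0.783).

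IER2 was the steadiest of the factors that did not pass. IER2 stood at 61.4, 60.3 and 66.3 CPM in the siADNP libraries, against 57.8, 64.4 and 57.7 CPM in the siControl libraries. The 95% interval of 94.8% to 115% of control is the narrowest among those 4 relative to its centre (log2 fold change 0.06, adjusted p = 0.552, edgeR). With a GC correction the sign turned (-0.08, adjusted p = 0.393). IER2 also shares exonic bases with a gene on the opposite strand.

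Levels of different genes were compared as CPM per kilobase of transcript. FOSL1 averaged 150.3 ± 11.2 with siADNP and 174 ± 9.97 with siControl, and EGR1 followed with 44.4 ± 5.65 and 47.3 ± 7.43 (CPM per kilobase; SD, n = 3 each). IER2 stood at 21.4 ± 1.10 with siADNP and 20.4 ± 1.32 with siControl, and JUNB at 19.8 ± 0.0970 and 22.9 ± 2.02. IER2 ranked above JUNB with siADNP and below it with siControl, where their ranges overlap. JUND came next, with 11.9 ± 0.712 CPM per kilobase in siADNP libraries and 15.3 ± 1.53 in siControl libraries. FOSL2 and JUN then exchanged places in CPM per kilobase, though FOSL2 had more reads than JUN in every library. The exchange rests on the transcript lengths used, 6708 bases for FOSL2 and 3540 for JUN. FOSL2 stood at 4.64 ± 0.0215 and JUN at 3.67 ± 0.193 CPM per kilobase with siADNP, while with siControl FOSL2 stood at 3.59 ± 0.478 and JUN at 4.93 ± 0.218, and the ranges of the 2 genes do not overlap in either group. In reads, which need no length, there were 2.53, 2.38 and 2.29 of FOSL2 per read of JUN in siADNP libraries, against 1.23, 1.42 and 1.47 in siControl libraries. FOS, with 2.84 ± 0.429 and 2.60 ± 0.736 CPM per kilobase, and FOSB, with 0.923 ± 0.0574 and 0.696 ± 0.168, were last in both groups.

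**Figure D4:**
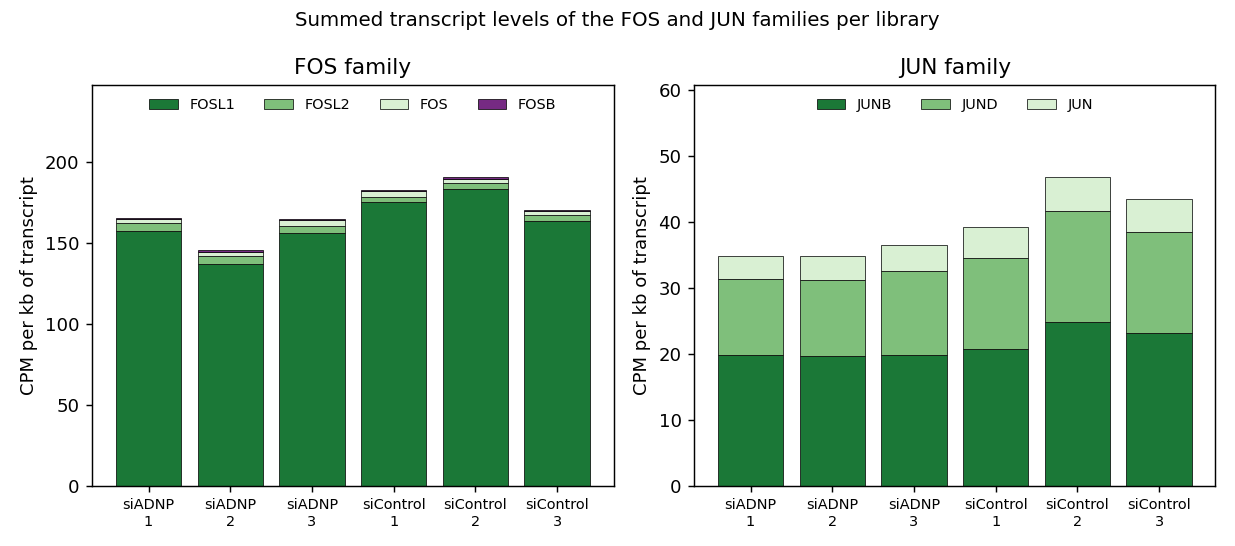
Summed level of the FOS family (left) and the JUN family (right) in each library, in CPM per kilobase of transcript, with siADNP libraries left of siControl libraries and colours for the members. The FOS family is almost wholly FOSL1, and the JUN family total is lower in every siADNP library, at 34.8 to 36.4 against 39.2 to 46.7.

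The JUN family as a whole had 34.8, 34.9 and 36.4 CPM per kilobase in the siADNP libraries, against 39.2, 46.7 and 43.4 in the siControl libraries. The mean was 82.0% of control, and all siADNP libraries were lower (exact permutation test, two-sided p = 0.1, the smallest that 3 against 3 libraries allow, or 0.113 after Benjamini-Hochberg adjustment over 9 family values). JUNB supplied the larger part of it, 56.0 ± 1.34% with siADNP and 53.1 ± 0.0862% with siControl (SD, n = 3 each). The share of JUN was 10.4 ± 0.342% and 11.5 ± 0.542%, and that of JUND 33.6 ± 1.12% and 35.4 ± 0.488%. None of these shares can reach an exact p under 0.1 in this design.

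The FOS family had 166, 145 and 165 CPM per kilobase in the siADNP libraries, against 183, 191 and 170.4 in the siControl libraries, 87.6% of control in the mean. FOSL1 made up 94.7 ± 0.324% of it with siADNP and 96.2 ± 0.0842% with siControl (SD, n = 3 each). The share of FOSL2 was 2.94 ± 0.209% with siADNP and 1.99 ± 0.317% with siControl, with no overlap between the groups. FOS held 1.79 ± 0.207% and 1.43 ± 0.385%, and the groups overlap, while FOSB held 0.585 ± 0.0818% and 0.382 ± 0.0781%. Apart from the share of FOS (p = 0.3), each of these values gave an exact permutation p of 0.1, two-sided, or 0.113 adjusted over the 9 family values.

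Other bZIP proteins, not all of them partners of FOS or JUN, were called in both directions. Of 16 listed, 11 could be tested, 2 rose, 2 fell and 7 did not pass, with a median log2 fold change of 0.07. That is 36.4% called, with 18.2% in each direction, against 28.3% of all tested genes, with 14.6% higher and 13.7% lower. JDP2, which pairs with JUN and represses AP-1 sites, rose to 18.7 ± 1.27 CPM with siADNP, against 11.5 ± 1.97 CPM with siControl (SD, n = 3 each; log2 fold change 0.69, adjusted p = 5.92e-05, edgeR). ATF2, a partner of JUN at the octamer of the JUN promoter, rose with 0.40, while its close relative ATF7 fell with -0.32. NFE2L2, the oxidative stress factor NRF2, fell with -0.16, and its call ended without siADNP replicate 1 (-0.12, adjusted p = 0.0979), siControl replicate 1 (-0.15, 0.0668) or siControl replicate 2 (-0.15, 0.0697). With a GC correction 4 of the list were called lower. ATF3, itself an early stress gene, did not pass (0.07, adjusted p = 0.712).

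The other immediate early genes fell more often than they rose. Of 36 listed, 33 could be tested, and 15 fell, 2 rose and 16 did not pass, so that 45.5% of those tested were called lower, against 13.7% of all genes. Their median log2 fold change was -0.28, against -0.00128 over all tested genes. The list was chosen with earlier results of these data known, and its excess of falls was not tested. The zinc finger factor KLF6 fell to 98.7 ± 2.96 CPM with siADNP, against 156 ± 10.7 CPM with siControl (SD, n = 3 each; log2 fold change -0.66, adjusted p = 2.07e-11, edgeR). BTG2, an antiproliferative protein, and PLK2 and PLK3, polo-like kinases, fell with -0.71, -0.57 and -0.38. The orphan nuclear receptor NR4A2 fell with -0.61, the small GTPase RHOB with -0.42, KLF10 with -0.36 and the survival factor MCL1 with -0.32. These 8 calls held in all 16 alternatives, and the other 7 falls, among them MYC, DUSP1, ZFP36 and CYR61, each lost the call in at least 1. DESeq2 called 9 of the list lower.

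The early genes that rose were PHLDA1 and HES1, a transcriptional repressor induced by Notch, with log2 fold changes of 0.49 and 0.65, and 4 were called higher under upper-quartile scaling and when siADNP replicate 1 was left out. Several abundant early genes did not pass. IER3 averaged 183.7 CPM in both groups (log2 fold change -0.00208, adjusted p = 0.984, edgeR), and IER5L, TRIB1 and ZFP36L1 gave log2 fold changes of 0.01, 0.01 and -0.03. NR4A1 gave 0.14 and EGR3, with 80 reads in all, -0.93 without passing (adjusted p = 0.0701). CTGF, with 65 reads in all, gave 0.95 without overlap between the groups and did not pass either (adjusted p = 0.0696, edgeR). EGR2 and EGR4 had too few reads to test, and NPAS4 had 0.

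**Figure D5:**
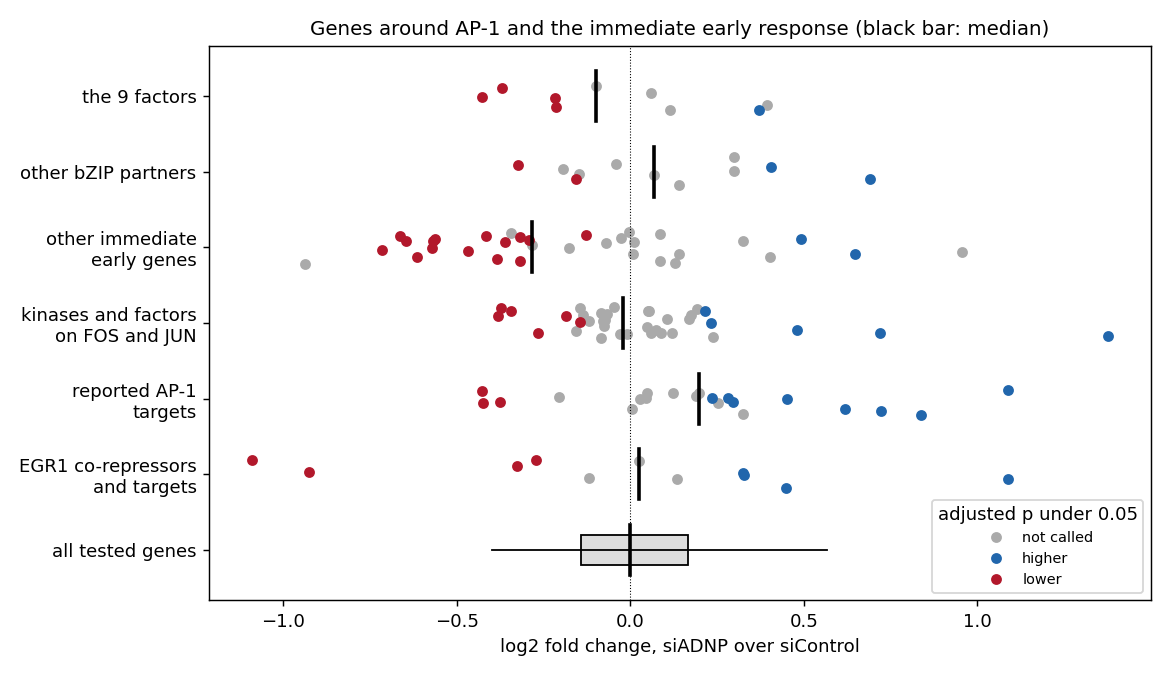
Log2 fold changes, siADNP over siControl, of the tested genes in 6 lists, coloured by call, with each list's median as a black bar; the box of all tested genes spans the 25th to 75th percentiles and its line the 5th to 95th. The median of the other immediate early genes is -0.28 and that of the reported AP-1 targets 0.20, against -0.00128 for all genes.

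Kinases and factors that act on FOS and JUN were called at near the background rate, with 5 rises and 6 falls among 36 tested (30.6% called, against 28.3% of all genes). The rises numbered 3 without siADNP replicate 1 or 2, and 2 without siControl replicate 1 or 2 and in DESeq2. Around the JUN kinases, MAP2K4, which activates JNK, fell with a log2 fold change of -0.37 and MAPK8, JNK1 itself, with -0.34. Their counterparts MAP2K7 (-0.12, adjusted p = 0.353, edgeR) and MAPK9, JNK2 (-0.16, adjusted p = 0.101, edgeR), did not pass. MAP3K12, an upstream kinase of the JNK branch, rose to 18.6 ± 1.32 CPM with siADNP, against 7.10 ± 1.35 CPM with siControl (SD, n = 3 each; log2 fold change 1.37). MAPK3, the kinase ERK1, rose with 0.72. FBXW7, the ubiquitin ligase subunit that marks phosphorylated JUN for degradation, fell with -0.38. SRF and its partners ELK1, ELK3 and MKL2 did not pass, with -0.07, -0.07, -0.05 and -0.07. Of its other partners, ELK4 fell with -0.15 (adjusted p = 0.0458, edgeR) and MKL1 rose with 0.23 (adjusted p = 0.0177, edgeR), calls that ended in 10 and 4 of the 16 alternatives.

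Genes reported as AP-1 targets in other systems included 8 rises, 3 falls and 10 that did not pass among 21 tested of 36 listed, with a median log2 fold change of 0.20. Of those tested, 38.1% were called higher and 14.3% lower, against 14.6% and 13.7% of all genes. Of the 8 rises, 5 held in all 16 alternatives. These shares take no account of GC content, which moved with the group over the whole table, and the list was chosen with earlier results known. TGFB1 rose to 73.5 ± 4.92 CPM with siADNP, against 34.6 ± 1.89 CPM with siControl (SD, n = 3 each; log2 fold change 1.09), and the maintenance DNA methyltransferase DNMT1 with 0.62. The plasminogen activator PLAU and its receptor PLAUR rose with 0.72 and 0.45, and the adhesion receptor CD44 with 0.23. CCND1, which encodes cyclin D1, and the growth factor EREG fell with -0.43 and -0.42. These 7 calls held in all 16 alternatives, and DESeq2 called 5 of the list higher. The collagenase MMP1 and the stromelysin MMP10, classical AP-1 targets, had 0 reads in all 6 libraries, and MMP3 and MMP13 had 2 and 7 reads in all.

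Among co-repressors and reported targets of EGR1, 4 rose, 4 fell and 3 did not pass of 11 tested, or 36.4% in each direction, against 14.6% higher and 13.7% lower of all genes. The rises numbered 2 without siADNP replicate 2, without siControl replicate 3, with a GC correction and in DESeq2. NAB1, a co-repressor that binds EGR1, fell with a log2 fold change of -0.27, and NAB2, which EGR1 is known to induce, did not pass (0.02, adjusted p = 0.857, edgeR). PDGFA fell to 6.94 CPM with siADNP, against 13.2 CPM with siControl, and CDKN1A, the cell cycle inhibitor p21, fell with -1.09. NDRG1 rose with 0.32, as did TGFB1, which is on both target lists.

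Over the 6 libraries, the genes whose log2 levels followed those of JUN most closely were FRK, QARS and GTF3C3, with Pearson's r of 0.999, 0.999 and 0.996. For FOSL1 they were PGK1, GPM6A and NDUFC1, with r of 0.995, 0.993 and 0.993. For EGR1, whose replicates differ more than its groups, they were C4orf32, GTPBP2 and ERRFI1, with r of 0.985, 0.963 and 0.962. FOS, which was scarce and did not pass, still reached an r of 0.997 with ZNF354B. All points share the 6 libraries and their scaling, and 878 of 10538 genes had an r over 0.9 with JUN, against 289 with FOSL1 and 30 with EGR1. The named genes are the highest of 10538 over only 6 points, and how high such an r would be by chance was not tested. For JUN and FOSL1, which were called, r also takes in the difference between the groups.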

How the data were processed

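Total RNA of 6 HCT116 samples was sequenced with a Nugen whole RNA library kit, per the labels' protocols. The main table holds the deposited raw counts, 1 line per gene symbol; STAR, HTSeq and DESeq2 on hg19 are named without versions in the submitters' processing notes. A second deposited table holds log2-like values with a floor of 7.13, which matched a variance-stabilizing transformation recomputed from the counts to within 0.0148 and served only as an alternative. Lines naming no gene were left out. Reads in no feature made up 54.4% to 55.7% with siADNP and 53.5% to 54.3% with siControl, higher in every siADNP library. Ambiguous reads made up 0.455% to 0.479% with siADNP and 0.486% to 0.500% with siControl, lower in every siADNP library. Between 17.4% and 17.9% of reads aligned to several places. Whether these group differences bear on the calls was not tested. The design text calls the samples biological replicates without saying that cultures were separate, and the p-values rest on the spread among these 6 samples, which may be technical.

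The main test was edgeR 4.0.16 under R 4.3.3 (TMM, filterByExpr with a minimum count of 10, quasi-likelihood F test, two-sided, Benjamini-Hochberg), called at an adjusted p under 0.05. The SE is the log2 fold change over the square root of F. Tested on simulated data of this comparison, the fit recovered 73.7% of 0.5 log2 changes and 92.9% of 1 log2 changes, with 4.09% of calls false, on 12412 genes. Only 200 genes were changed there, while 28.3% of the real genes tested were called. Both simulated sizes exceed those of the 5 called factors, 0.21 to 0.43, so recovery at the factors' sizes was not measured. Alternatives used DESeq2 1.42.0 and limma 3.58.1, and figures matplotlib 3.10.9. Transcript length and GC content came from the longest coding transcript in GENCODE, matched for 90.0% of tested genes, promoters from RefSeq on GRCh38.p14, and no coordinates were mixed with hg19.

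The members and gene lists were chosen with earlier results of these data known. The rule names the 9 factors, ADNP, up to 4 called genes with the smallest p per list (the 2 smallest where fewer than 2 were called), and the 3 genes most correlated with each factor among those with a mean of at least 5 CPM, on log2(CPM + 0.5). Other genes were named after their values were seen. A few genes of the lists count in the totals but are not reported here by name. Marker lists gave 2 rises and 1 fall among 9 tested epithelial genes (CLDN3 and CLDN4 higher, KRT19 lower), 1 rise (DES) and 1 fall (ACTA2) among 3 fibroblast or smooth muscle genes, and 1 rise (CD68) among 1 blood or endothelial gene.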

Additional observations from a re-analysis of the deposited data

How the results depend on the processing

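Of the 5 called factors, FOSL1, FOSL2, JUN and JUND kept direction and call in all 16 alternatives, and JUNB kept its call in 7. With DESeq2, 1106 genes were higher and 1079 lower (1105 and 1076 shared with edgeR), against 1824 and 1714 in edgeR, and 12 genes of the pathway lists were higher, against 20. A GC correction replaced many calls. It gave 1545 genes higher and 1865 lower, of which 1355 and 1349 were shared with the main fit. In the pathway lists it gave 18 higher and 37 lower, 15 and 27 of them shared, against 20 and 30. Among factors that did not pass, the sign turned for FOS without siADNP replicate 3 (-0.00198) and without siControl replicate 3 (-0.0260), for EGR1 without siControl replicate 2 (0.0345), and for IER2 under GC correction (-0.0814, or -0.0805 when the block was added). Leaving out 1 library at a time gave FOS values up to 0.355 and EGR1 values down to -0.196, EGR1 passing without siControl replicate 3. With limma on the deposited log2 values, a shrunken scale, JUN fell by 0.18 and FOSL2 rose by 0.20. The calls of KRT19, CLDN4 and CD68 ended in 5, 3 and 8 alternatives. Family differences kept their direction in every alternative run.

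Same-numbered libraries did not deviate together (correlations of deviations from the group means between -0.04 and 0.02), so the numbers do not pair them, and siADNP replicate 2 correlated best with siControl replicate 3. With the replicate block, 1694 genes were higher and 1542 lower, and 3 factors fell and 1 rose, JUNB no longer passing (adjusted p = 0.0534).

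Depth limits FOS and FOSB, with 19 to 66 reads a library, and no factor's exact test over libraries can go below 0.1. Transcript lengths of a newer annotation set the order of levels between genes but not the fold changes.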
